A study of Mus musculus with 14 samples.

Results

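Dorsal horn (DH) microglia from TASTPM mice were compared with those from wild-type (WT) mice when both had received K/BxN serum. The comparison used 8 of the 14 RNA-seq libraries in the series, 4 from TASTPM K/BxN serum transfer (ST) and 4 from WT K/BxN ST. Of 14329 genes in the deposited values, the 13199 that reached 10 reads in 4 or more of these 8 libraries were compared. TASTPM mice are heterozygous for human amyloid precursor protein with the Swedish mutation and for a second human transgene, each driven by the murine Thy-1 promoter, on a C57BL/6 background. WT mice were non-transgenic animals of the same backcross. All mice were 6 months old and the spinal cord was taken at day 5 after the first of the serum injections, when CD45low CD11b+ CX3CR1+ cells were sorted, with 2000 cells in each sample. The gate of the study also left out cells positive for Ly6C or CCR2, which are surface markers of classical monocytes. The other 6 libraries, 3 TASTPM Control ST and 3 WT Control ST, came from mice given pooled serum of KRN/C57 mice and are used only for values beside those of K/BxN ST.

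Microglia are the resident macrophages of the central nervous system. In the resting state they express receptors such as P2RY12 and CX3CR1, through which they sense nucleotides and the neuronal chemokine fractalkine. K/BxN serum carries autoantibodies against glucose-6-phosphate isomerase and gives a transient inflammatory arthritis with pain hypersensitivity. Toll-like receptor 4 (TLR4) on microglia senses bacterial lipopolysaccharide and endogenous ligands such as HMGB1 and galectin-3. The Thy-1 promoter is used to drive transgenes in neurons. The comparison asks whether the microglial transcriptome under arthritis differed with genotype.

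The microglial gene Tmem119 was abundant in all 8 libraries, at 42292 to 162963 normalised counts, and lowest in TASTPM library 1. Markers of classical monocytes took 0.744% to 1.14% of reads in TASTPM libraries 1 and 2 and 0.599% to 0.987% in WT libraries 1 and 2, against 0.00169% to 0.00337% in libraries 3 and 4 of both genotypes. Although the gate left out Ly6C-positive cells, Ly6c2, which encodes such an antigen, had 29133, 15646, 13 and 10 normalised counts in TASTPM and 23510, 12898, 4 and 13 in WT. Neutrophil markers followed in TASTPM 1 and 2 and WT 1, at 1.28% to 1.42% of reads, but stood at 0.0649% in WT 2. The first principal component, 48.3% of the variance over the tested genes, placed libraries 1 and 2 of each genotype apart from libraries 3 and 4. Genotype accounted for 8.7% of the sum of squares and 14.3% of the degrees of freedom. The Y-linked gene Ddx3y was expressed in TASTPM 1, 2 and 3 and in WT 1 and 2, with 633 to 1048 normalised counts. It was at 0 or 1 in the others, so that male and female libraries were not equally divided between genotypes. Every library with monocyte RNA was thus male, and of those without only TASTPM 3 was. Monocyte RNA and sex therefore cannot be told apart when these 2 kinds of library are set side by side. Within the libraries without monocyte RNA, genotype was also in part confounded with sex. Reads on genes numbered 14371340 to 17470093 per TASTPM library and 14223015 to 18738784 per WT library (two-sided exact permutation test, p = 0.400).

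**Figure D1:**
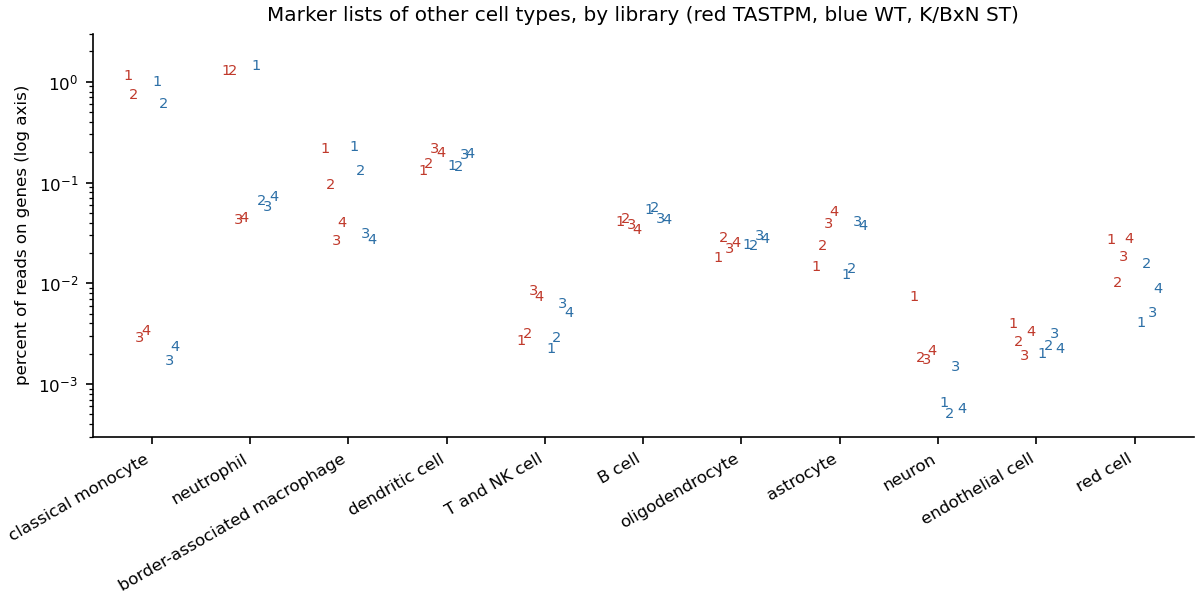
Percent of reads on genes that fell on marker lists of 11 other cell types (log axis), each digit being 1 library of TASTPM (red) or WT (blue) K/BxN ST. Libraries 1 and 2 of both genotypes lie above 0.5% for classical monocyte markers and libraries 3 and 4 below 0.01%. In TASTPM library 1 Thy1 gave 90.2% of the reads on neuronal markers.

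No gene was called different between TASTPM and WT under K/BxN ST. At an adjusted p below 0.05 and an absolute log2 fold change above 1, limma called 0 of 13199 genes (0%), and the smallest adjusted p was 0.9998. edgeR and DESeq2, run on the recovered reads, also called 0 genes. Without adjustment, 286 genes had a limma p below 0.05, against 212 with edgeR and 302 with DESeq2. Of the 286, 164 were higher in TASTPM (1.24% of the genes tested) and 122 were lower (0.924%), which together make 2.17% of the genes tested. This balance turned when single libraries were left out, with 112 genes higher and 141 lower without TASTPM library 2, 106 and 146 without TASTPM library 3, and 153 and 186 without TASTPM library 4. Without WT library 4 it was 163 and 73, and edgeR gave 109 and 103. All 4 TASTPM libraries lay above all 4 WT libraries for 146 genes (1.11%) and below them for 86 (0.652%). The median difference over the 13199 genes was 0.000452 on the log2 scale, the median size of a difference was 0.259 and the median standard error 0.434.

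Monocyte RNA was present in 2 libraries of each genotype, and neutrophil RNA in 2 TASTPM libraries and 1 WT library. The genes were also fitted with the mean log2 level of these markers as a covariate. Again 0 genes were called with limma, and 350 (2.65%) were higher and 340 (2.58%) lower at an unadjusted p below 0.05. In alternatives added after the data were seen, limma with the monocyte score alone called 1 gene, Fkbp5, and DESeq2 with the monocyte and neutrophil score called 10, while edgeR with that score called 0. Among the 2 TASTPM and 2 WT libraries without monocyte RNA, limma called 0 genes.

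**Figure D2:**
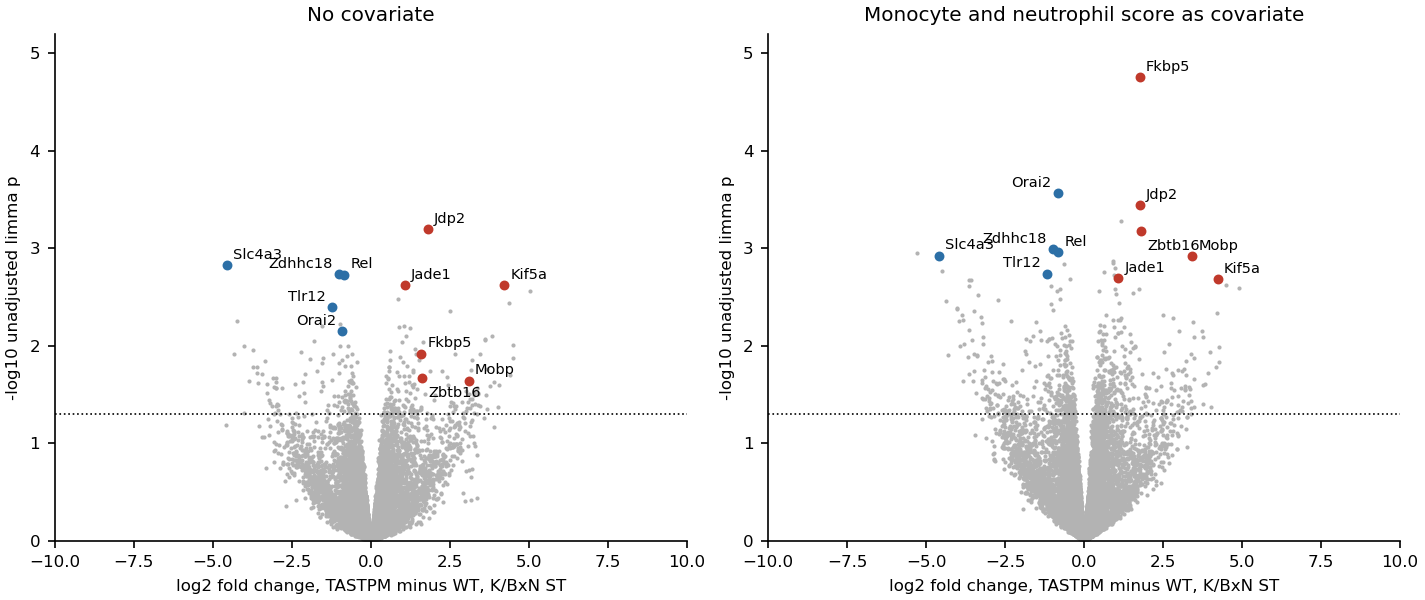
Log2 fold change of TASTPM minus WT K/BxN ST (x axis) against -log10 of the unadjusted limma p (y axis) for 13199 genes, without a covariate (left) and with the monocyte and neutrophil score (right). The dotted line marks the unadjusted threshold. Jdp2 is the highest point on the left and Fkbp5 on the right, and no point passes the adjusted threshold in either panel.

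Among genes higher in TASTPM, the smallest p belonged to Jdp2, a bZIP protein that dimerises with JUN and represses AP-1 targets. Jdp2 (chr12:85645015-85690570, plus strand, GRCm39) had 636, 595, 829 and 407 normalised counts in the TASTPM libraries, against 294, 150, 115 and 166 in WT. All TASTPM libraries lay above all WT libraries, in those with monocyte RNA and in those without. The difference was 1.81 ± 0.36 (log2, SE, n = 4 per group), with limma p = 6.39e-04 and an adjusted p of 0.9998 (two-sided exact permutation p = 0.0286, the smallest that 70 splits allow). With DESeq2 the adjusted p was 0.0886, and 0.00645 with the monocyte and neutrophil score. With that score the adjusted p was 0.893 in limma and 0.988 in edgeR. In Control ST, whose libraries are separate, the Jdp2 difference was 1.65 ± 0.55, with the spread taken from all 14 libraries. Of 13 tested genes of the AP-1 family, listed after the Jdp2 values were known, 9 were higher in TASTPM with a median of 0.19, and Jdp2 was the 1 at an unadjusted p below 0.05 (1.24% higher over all genes).

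Jade1, a scaffold of the HBO1 histone acetyltransferase complex, had 540, 533, 651 and 505 normalised counts in TASTPM and 308, 204, 223 and 342 in WT, a difference of 1.07 ± 0.26. Dennd1b, an exchange factor for Rab35 in endosomal transport, had 624, 605, 880 and 688 against 388, 319, 435 and 376, a difference of 0.87 ± 0.22. Prmt7, an arginine methyltransferase, had 721, 622, 967 and 618 against 448, 437, 410 and 270. These genes were expressed at moderate level in every library and their groups did not overlap (1.11% higher over all genes). Harbi1, derived from a transposase, had 276, 308, 449 and 369 against 176, 212, 143 and 138. Its difference was 1.06 ± 0.30 under K/BxN ST and -0.08 ± 0.33 under Control ST (limma interaction, unadjusted p = 0.0210, adjusted p = 0.9988).

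Kif5a, Gm12708, Zfp184 and Mipol1 had low counts in WT, where a fitted difference depends on the pseudocount of 1. Kif5a, a neuronal kinesin heavy chain, had 17, 16, 45 and 16 normalised counts in TASTPM and 1, 0, 0 and 0 in WT. The antisense gene Dctn2 overlaps Kif5a, and the library kit does not mark strand, so that reads of the stretch they have in common cannot be told apart. How many reads fall there was not measured. The same holds for Jade1 and Sclt1, Harbi1 and Atg13, and Prmt7 with Slc7a6os and Smpd3. The long noncoding RNA Gm12708 had 37, 63, 167 and 72 against 25, 0, 0 and 0, and Zfp184, a zinc finger protein, had 24, 53, 132 and 87 against 5, 0, 14 and 0. Mipol1 had 37, 96, 58 and 146 against 19, 12, 10 and 11. Gm2606, a processed pseudogene whose reads may be shared with its parent gene, had 303, 557, 422 and 745 against 313, 194, 162 and 164, and its groups overlapped. The other 9 of these 10 genes did not overlap between groups (1.11% higher over all genes). They were chosen by their p in these same libraries, which favours such genes, so the count is no further evidence.

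Among genes lower in TASTPM, Rel and Tlr12 belong to innate immune signalling. Rel encodes c-Rel, a subunit of NF-κB. It had 583, 666, 551 and 796 normalised counts in TASTPM and 980, 1209, 1167 and 1283 in WT, with no overlap, a difference of -0.84 ± 0.20 (limma p = 0.00187, adjusted p = 0.9998; exact permutation p = 0.0286). The difference was -0.88 in the libraries without monocyte RNA and -0.80 in those with it. In Control ST the difference of Rel was 0.14 ± 0.26, and the interaction of genotype and serum had an unadjusted p of 0.0121 and an adjusted p of 0.9988 (limma). Tlr12, an endosomal receptor for profilin of Toxoplasma, had 349, 572, 385 and 784 in TASTPM and 785, 1084, 1310 and 1619 in WT, a difference of -1.22 ± 0.32. The highest TASTPM library lay just below the lowest WT library.

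Orai2, a subunit of store-operated calcium channels, had 736, 761, 1050 and 1309 normalised counts in TASTPM and 1349, 1511, 2450 and 1902 in WT. The values were lower in TASTPM within the libraries with monocyte RNA and within those without (2.3% of all genes), and the difference was -0.91 ± 0.26, against -0.83 ± 0.40 in Control ST. Zdhhc18, a palmitoyltransferase, had 318, 453, 445 and 380 against 679, 659, 915 and 991, a difference of -1.01 ± 0.24. Arl4c, a small GTPase, had 241, 268, 187 and 282 against 445, 602, 361 and 515, and Zfp945, a zinc finger protein, had 105, 248, 95 and 211 against 291, 332, 582 and 704. These genes did not overlap between groups (0.652% lower over all genes), and they too were chosen by their p in these libraries.

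Lower counts marked the remaining genes on this side. Slc4a3, an anion exchanger, had 0, 4, 0 and 0 normalised counts in TASTPM and 23, 47, 20 and 57 in WT. Cerox1, a long noncoding RNA that regulates mitochondrial complex I, had 1, 24, 0 and 0 against 27, 66, 57 and 59. Gm43681, which overlaps Ccni and Septin11, had 63, 61, 33 and 24 against 81, 162, 149 and 246. Kcp, a secreted modulator of BMP signalling, had 1, 0, 0 and 33 against 51, 72, 43 and 27, with 1 TASTPM library inside the WT range.

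**Figure D3:**
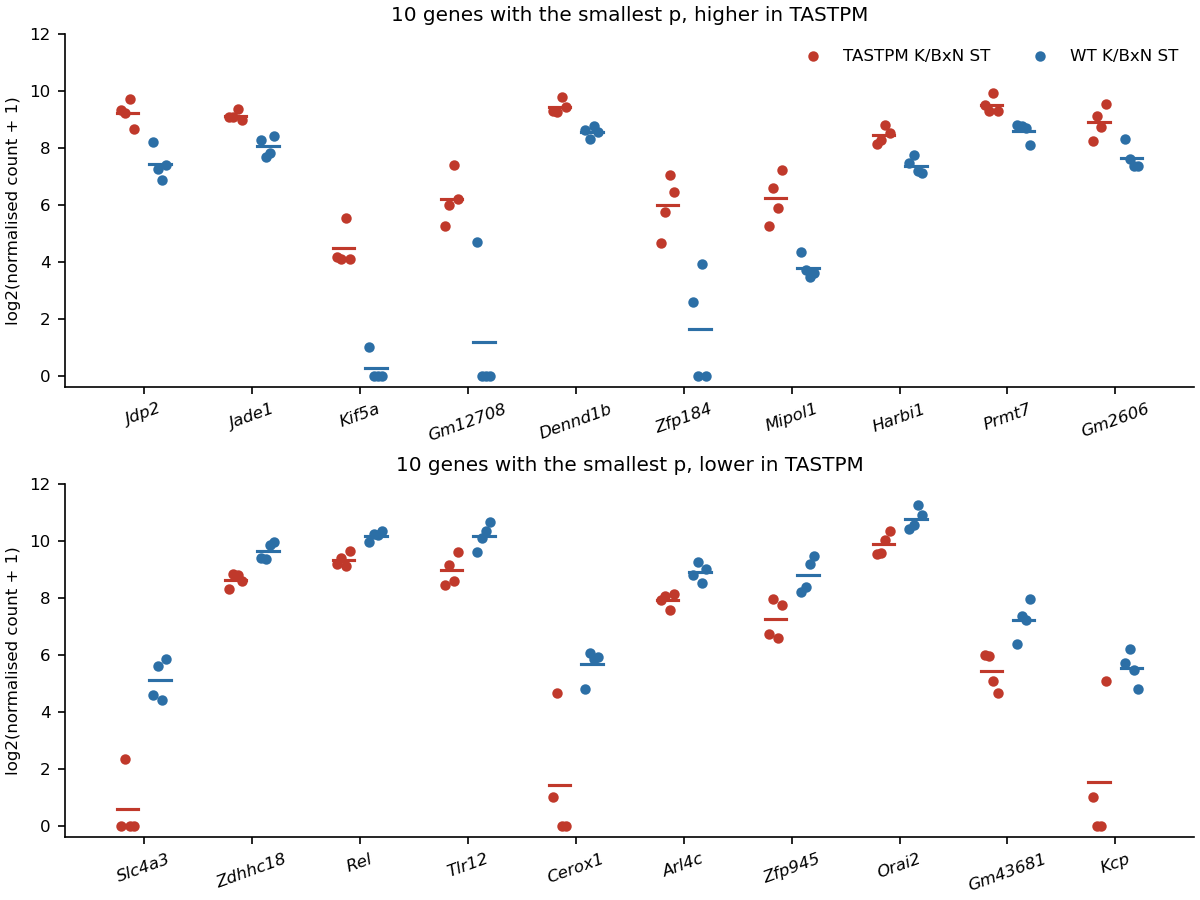
Log2(normalised count + 1) of the 10 genes with the smallest limma p among those higher in TASTPM (top) and the 10 among those lower (bottom). Points are the 4 TASTPM (red) and 4 WT (blue) K/BxN ST libraries and bars are their means. The groups overlap for Gm2606 and Kcp and are separate for the other 18 genes, which the choice by p in these libraries favours.

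Fkbp5 stood out once monocyte RNA was taken into account. It encodes FKBP51, a co-chaperone of the glucocorticoid receptor that the receptor itself induces, and it was singled out after its values were seen. Fkbp5 had 4349, 4345, 12172 and 10633 normalised counts in TASTPM and 1470, 1225, 4392 and 3800 in WT. In libraries 1 and 2, which hold monocyte RNA and are male, both TASTPM values lay above both WT values. The same held at a higher level in libraries 3 and 4, of which only TASTPM 3 is male. Such a separation within both pairs, higher in TASTPM, was found for 391 of the 13199 genes (2.96%). Over all 8 libraries the groups overlapped, since the TASTPM values of libraries 1 and 2 lay below the highest WT value. Without a covariate the difference was 1.59 ± 0.51 (limma p = 0.0120, adjusted p = 0.9998; two-sided exact permutation p = 0.0857). With the monocyte and neutrophil score it was 1.75 ± 0.22 (limma, unadjusted p = 1.76e-05, adjusted p = 0.232), and with the monocyte score alone the adjusted p was 0.00623. With DESeq2 and the monocyte and neutrophil score the adjusted p was 7.87e-11. The difference was 1.48 in the libraries without monocyte RNA and 1.70 in those with it. In the Control ST libraries, which are separate from the K/BxN ST ones, Fkbp5 had 6738, 6540 and 8013 in TASTPM and 2151, 1013 and 954 in WT. The Control ST difference was 2.47 ± 0.52 (limma, unadjusted p = 2.72e-04, adjusted p = 0.383), with the spread taken from all 14 libraries. A change of this difference with serum was not detected (limma interaction -0.88, unadjusted p = 0.219).

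Fkbp5 lies at chr17:28618058-28737521 on the minus strand of GRCm39. The gene was searched for the palindromic glucocorticoid response element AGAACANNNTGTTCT, which reads the same on both strands, because intronic elements of this kind are known to bind the receptor in Fkbp5. It held 2 matches, both in introns, and they are shown on the strand of the gene, 5′ to 3′, with the element in capitals. The first lies at chr17:28661387-28661413, 76121 bases from the gene start, and the second at chr17:28639289-28639315, 98219 bases from it.
Fkbp5 element 1: tgtttgAGAACAGCTTGTTCTaggctt
Fkbp5 element 2: acattcAGAACAGGGTGTTCTgtgctc
Of 760 windows of chromosome 17 of the length of the gene (119464 bases) that do not overlap it, 22 (2.89%) held the motif at all and 0 held as many matches. The gene was searched because such elements are known in it, so the windows show how rare the motif is and test nothing. No other gene was searched. The matches describe the sequence, and binding was not measured here.

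Other genes that glucocorticoids are known to induce were then listed, with Fkbp5 and the receptor gene Nr3c1 among them. Of 18 tested genes of that list 15 were higher in TASTPM (14 to 16 under other scalings), 3 at an unadjusted p below 0.05 (1.24% over all genes) and none lower. The median difference was 0.55 on the log2 scale beside 0.000452 over all genes. The list was written after the Fkbp5 values were seen and is no independent evidence of a direction. The 3 were Fkbp5, Zbtb16 and Nfkbia. In the libraries without monocyte RNA 11 of the 18 were higher, with a median of 0.46, and in Control ST 15 of 17 were, with a median of 1.39.

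Zbtb16, the transcription factor PLZF, had 113, 220, 632 and 588 normalised counts in TASTPM and 70, 81, 160 and 108 in WT, a difference of 1.63 ± 0.59, with 1 TASTPM value inside the WT range. Tsc22d3, which encodes the glucocorticoid-induced leucine zipper GILZ, had 11659, 13564, 18061 and 23034 against 11203, 10760, 13723 and 13570. The Tsc22d3 groups overlapped and the difference was 0.39 ± 0.24, against 1.49 ± 0.29 in Control ST. Ddit4, an inhibitor of mTORC1, had 95, 127, 432 and 745 against 39, 50, 239 and 248. Hif3a, a hypoxia-inducible factor subunit, had 5, 28, 148 and 38 against 0, 0, 78 and 4. As for Fkbp5, the TASTPM values of Ddit4, Zbtb16 and Tsc22d3 lay above those of WT within the libraries with monocyte RNA and within those without (2.96% of all genes). Those of Hif3a and Dusp1 did so only within the libraries with monocyte RNA. Dusp1, a MAP kinase phosphatase, had 2262, 2155, 470 and 399 against 916, 187, 287 and 455, so that its difference of 1.34 ± 0.69 came mainly from libraries 1 and 2. Nr3c1 had 2572, 3040, 3980 and 3478 against 3270, 3056, 3803 and 4451, a difference of -0.16 ± 0.20.

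**Figure D4:**
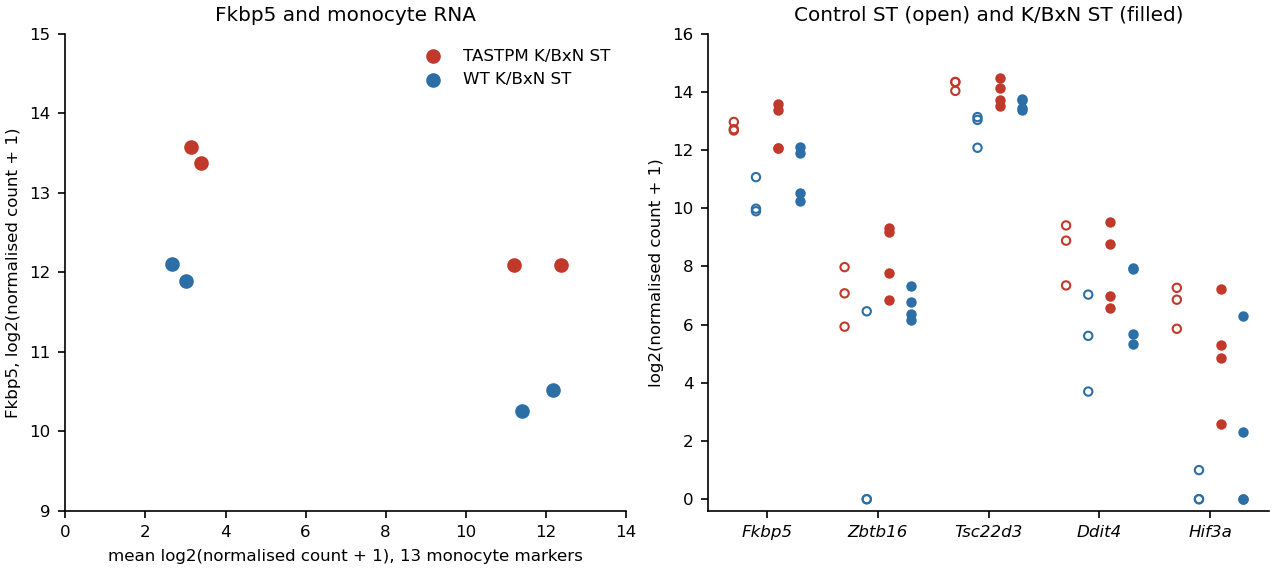
Left, log2(normalised count + 1) of Fkbp5 against the mean log2(normalised count + 1) of 13 classical monocyte markers in the 8 K/BxN ST libraries. Right, the same quantity for Fkbp5, Zbtb16, Tsc22d3, Ddit4 and Hif3a in Control ST (open) and K/BxN ST (filled), TASTPM in red and WT in blue, some points covering others; at either level of monocyte RNA the TASTPM values of Fkbp5 lie above the WT ones.

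The mouse gene App, whose human counterpart is a transgene here, differed by less than its standard error. App had 4932, 5028, 2810 and 3926 normalised counts in TASTPM and 5602, 5005, 3165 and 3825 in WT, a difference of -0.08 ± 0.25. Whether reads of the human transcripts would align to the mouse gene was not tested. Thy1, whose promoter drives the transgenes and which neurons and T cells express, had 1085, 109, 0 and 0 normalised counts in TASTPM and 0, 3, 0 and 1 in WT. It failed the filter, and only TASTPM libraries 1 and 2 held more than 3 counts.

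Of 14 tested genes for proteins that the study stained or sorted on, 4 were higher in TASTPM, with a median of -0.08. At an unadjusted p below 0.05 there were 0 of the 14, beside 2.17% over all genes, a share at which 0 is no result about these genes. Tlr4 had 2509, 2816, 4837 and 5530 normalised counts in TASTPM and 2555, 3706, 5938 and 5426 in WT, a difference of -0.17 ± 0.34. Lgals3, which encodes galectin-3, had 22744, 9134, 236 and 171 against 22353, 11178, 2 and 285. It was high in the libraries with monocyte RNA and low in the others for both genotypes, and the difference of 1.28 ± 2.74 turned on the 2 counts of WT library 3. Without that library it was -1.28.

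The purinergic receptor gene P2ry12 had 34656, 79940, 107606 and 110310 normalised counts in TASTPM and 63550, 94752, 140287 and 139465 in WT, a difference of -0.46 ± 0.44. Cx3cr1 had 35235, 79648, 135846 and 124124 against 72232, 107725, 146581 and 155865, a difference of -0.48 ± 0.47. The mean of both genes was lower in TASTPM in the libraries with monocyte RNA, where the groups overlapped, and in those without, where they did not. In the latter the difference was -0.36 ± 0.10 for P2ry12 (limma, unadjusted p = 0.0229, adjusted p = 0.861) and -0.22 ± 0.11 for Cx3cr1. Over all genes 16.9% were lower in TASTPM without overlap in these 4 libraries, and 2.75% were lower at an unadjusted p below 0.05. Fewer cells of a type and less RNA per cell cannot be told apart in such bulk samples.

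Mertk, a receptor for apoptotic cells, differed by 0.05 ± 0.48. Trem2, a lipid and apolipoprotein receptor, differed by -0.09 ± 0.35, and Cd68, a lysosomal glycoprotein, by -0.07 ± 0.19. Itgax, which encodes CD11c, had 406, 236, 4 and 396 against 331, 426, 290 and 451, a difference of -1.69 ± 1.28 that was -0.13 without TASTPM library 3. H2-Aa, of MHC class II, had 28159, 6568, 612 and 1143 against 30560, 19271, 32 and 11. The H2-Aa values were high in the libraries with monocyte RNA and lower in the others of both genotypes, with a difference of 2.28 ± 2.58. The direction turned with the method, since the mean was lower in TASTPM (9120 against 12470), and edgeR gave -0.48 and DESeq2 -0.46. The H2-Aa difference was -0.84 in the libraries with monocyte RNA and 5.40 in those without.

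TLR4 signalling genes were then counted over a list of the receptor complex, its adaptors and downstream kinases, inhibitors and transcription factors. Of 32 tested, 9 were higher in TASTPM, 1 of them at an unadjusted p below 0.05 (1.24% over all genes) and none lower (0.924%), with a median of -0.11. In the libraries without monocyte RNA 16 of the 32 were higher. The 1 gene was Nfkbia, the inhibitor IκBα, with 8255, 6341, 6662 and 5389 normalised counts in TASTPM and 4643, 3721, 5563 and 3999 in WT, a difference of 0.57 ± 0.20 (limma p = 0.0167, adjusted p = 0.9998; exact permutation p = 0.0571). Only 1 TASTPM value lay below the highest WT value. The difference of Nfkbia was 0.69 ± 0.28 in Control ST. The adaptor gene Ticam2 had 975, 897, 1768 and 1203 against 1575, 1519, 1414 and 2043, a difference of -0.47 ± 0.25. Its gene overlaps Tmed7 on the same strand, so reads may have been divided between them. Among TLR4 ligands 9 of 13 were higher in TASTPM with a median of 0.18, and 0 had a p below 0.05 (2.17% over all genes). Hmgb1 had 5243, 3438, 1839 and 2278 against 3836, 2788, 2797 and 2076.

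Over the Toll-like receptors and their partners, listed after the Tlr12 values were known, 13 of 15 were lower in TASTPM, 2 of them at an unadjusted p below 0.05 (0.924% over all genes), with a median of -0.20. Besides Tlr12 this was Cd180, an LPS-related receptor of the TLR family, with 461, 816, 437 and 451 normalised counts in TASTPM and 629, 976, 1190 and 1265 in WT (-0.91 ± 0.30). Its groups overlapped in 1 value. In the libraries without monocyte RNA 6 of the 15 were higher and the median was -0.13. NF-κB subunits and inhibitors, listed after the Rel values were known, gave a median of -0.08 over 14 tested genes, 6 of them higher. At an unadjusted p below 0.05, 1 was lower, Rel (0.924% over all genes), and 1 higher, Nfkbia (1.24%).

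Genes of the homeostatic state, the receptors and transcription factors of resting microglia, were on the lower side in TASTPM. Of 28 tested, 22 were lower with a median of -0.19, and 0 had an unadjusted p below 0.05 (2.17% over all genes). The transcription factor gene Sall1 had 937, 1615, 3062 and 3405 against 2002, 2713, 3781 and 4215, a difference of -0.61 ± 0.42. In the libraries without monocyte RNA 17 of the 28 were lower and the median was -0.05. TASTPM library 1 had the most monocyte marker reads and the lowest P2ry12 of all 8, and the part of that RNA in the difference was not tested.

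Disease-associated microglia genes, which microglia express around amyloid plaques, were higher for 12 of 32 tested, with a median of -0.07. Cst7, which encodes the protease inhibitor cystatin F, was the 1 gene at an unadjusted p below 0.05 (1.24% higher over all genes). Cst7 had 882, 1560, 422 and 440 normalised counts in TASTPM and 459, 250, 282 and 265 in WT, with 2 TASTPM values below the highest WT value. The difference was 1.22 ± 0.44 under K/BxN ST and -0.78 ± 0.48 under Control ST (limma interaction, unadjusted p = 0.00658, adjusted p = 0.9988).

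Cytokine and growth factor pathways held few genes at an unadjusted p below 0.05, as did all genes tested (2.17%). The counts are therefore no result about these lists. Of 24 tested genes of the TNF and IL-1 list 11 were higher, with 0 at a p below 0.05 (2.17% over all genes). Cxcl10, an interferon-induced chemokine, had 49, 125, 0 and 0 normalised counts in TASTPM and 245, 82, 22 and 240 in WT. Its groups overlapped, with a difference of -3.53 ± 1.71 (limma, adjusted p = 0.9998). With the monocyte and neutrophil score DESeq2 gave -5.31 with an adjusted p of 0.0220, against an adjusted p of 0.893 in limma and 0.988 in edgeR. The Cxcl10 difference was -0.85 in the libraries with monocyte RNA, and -1.76 with edgeR without a score. Tnfrsf1b, TNF receptor 2, had 8162, 8738, 12960 and 11741 against 13467, 14378, 11475 and 14300. Of 23 STAT3 pathway genes 11 were higher, and Il6st, the gp130 subunit shared by IL-6 family receptors, was the 1 at p below 0.05 (0.924% lower over all genes). Il6st had 1742, 2055, 3703 and 3264 against 3101, 4374, 3505 and 6204, a difference of -0.69 ± 0.30, against -0.89 ± 0.32 in Control ST. Myc had 1268, 1447, 3294 and 1829 against 586, 865, 1701 and 1419, a difference of 0.79 ± 0.40. Of 24 PI3K/AKT genes 15 were higher and 0 had an unadjusted limma p below 0.05 (2.17% over all genes). Tsc2, a brake on mTORC1, had 432, 374, 423 and 294 against 436, 611, 469 and 515 without overlap (0.652% lower over all genes).

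Interferon response genes were higher for 13 of 39 tested, with a median of -0.07 and 0 at a p below 0.05 (2.17% over all genes). In the libraries without monocyte RNA 12 of the 39 were higher and the median was -0.34. The guanylate-binding protein gene Gbp7 had 999, 508, 1090 and 774 against 462, 569, 581 and 536, and Ifi35 had 793, 888, 698 and 705 against 599, 666, 584 and 571 without overlap. Gene Vat1 overlaps Ifi35 in antisense. MHC class II genes were higher for 6 of 10 with a median of 0.08. The MHC class II median was -0.62 in the libraries with monocyte RNA and 0.39 in those without, and 4 of the 10 were higher with the monocyte and neutrophil score.

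Of 20 glycolysis genes 17 were higher in TASTPM (16 to 17 under other scalings), with a median of 0.14. With the monocyte and neutrophil score 11 of the 20 were higher, in the libraries without monocyte RNA 12 were, and under Control ST 8 were, with a median of -0.12. The glucose transporter gene Slc2a1 had 2265, 1988, 2605 and 2102 against 1630, 1958, 1343 and 1789 without overlap, a difference of 0.42 ± 0.18 (limma p = 0.0432, adjusted p = 0.9998; exact permutation p = 0.0286). In Control ST its difference was -0.65 ± 0.23, and the interaction had an unadjusted p of 0.00311 and an adjusted p of 0.9988 (limma). TCA cycle genes were higher for 13 of 20 with a median of 0.07.

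Genes that process amyloid precursor protein were higher for 10 of 24, with a median of -0.05. Bace1, the β-secretase, had 109, 160, 148 and 102 normalised counts in TASTPM and 29, 71, 11 and 60 in WT, without overlap, a difference of 1.86 ± 0.65 (limma p = 0.0180, adjusted p = 0.9998; exact permutation p = 0.0286). The antisense gene Rnf214 overlaps Bace1, and the share of reads from the stretch they have in common was not measured. Its difference in Control ST was 0.32 ± 0.82. Picalm, a clathrin assembly protein, had 2875, 3200, 4161 and 3845 against 2193, 2212, 2992 and 3033. The Picalm difference was 0.44 ± 0.20 under K/BxN ST and 0.66 ± 0.21 under Control ST.

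Phagocytic receptors were higher for 12 of 25 with a median of -0.06. The inhibitory Fc receptor gene Fcgr2b had 11843, 11559, 11956 and 11307 normalised counts in TASTPM and 9865, 10068, 9866 and 8806 in WT. The groups were narrow and separate (1.11% higher over all genes), for a difference of 0.28 ± 0.15 (limma, unadjusted p = 0.0918). Cd36, a scavenger receptor of macrophages and monocytes, had 899, 311, 0 and 0 against 1545, 866, 417 and 169. The WT values were higher in the libraries without monocyte RNA and the groups overlapped in those with it. Of 14 purinergic receptor genes 6 were higher, and P2ry14, a receptor for UDP-sugars, had 104, 29, 146 and 44 against 105, 0, 0 and 0. Cell cycle genes were higher for 18 of 28, with a median of 0.14, but for 13 of 28 in the libraries without monocyte RNA, with a median of -0.07. Tyms, thymidylate synthase, had 1098, 751, 656 and 457 against 732, 252, 263 and 140, and Mcm4, a replicative helicase subunit, had 1333, 699, 592 and 346 against 760, 221, 177 and 333. Immediate early genes, which tissue dissociation can also induce, were higher for 15 of 23 with a median of 0.36. Their median was -0.08 in the libraries with monocyte RNA and 0.47 in those without, where 19 of 23 were higher.

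Of the 21 lists of genes that are neither neuronal, markers of another cell type nor sex-linked, 14 had medians of opposite sign in the libraries with and without monocyte RNA. Besides the immediate early, MHC class II and cell cycle genes these were the disease-associated, TNF and IL-1, STAT3, PI3K/AKT, interferon, TCA cycle, amyloid processing, phagocytic, purinergic, NF-κB and AP-1 lists.

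**Figure D5:**
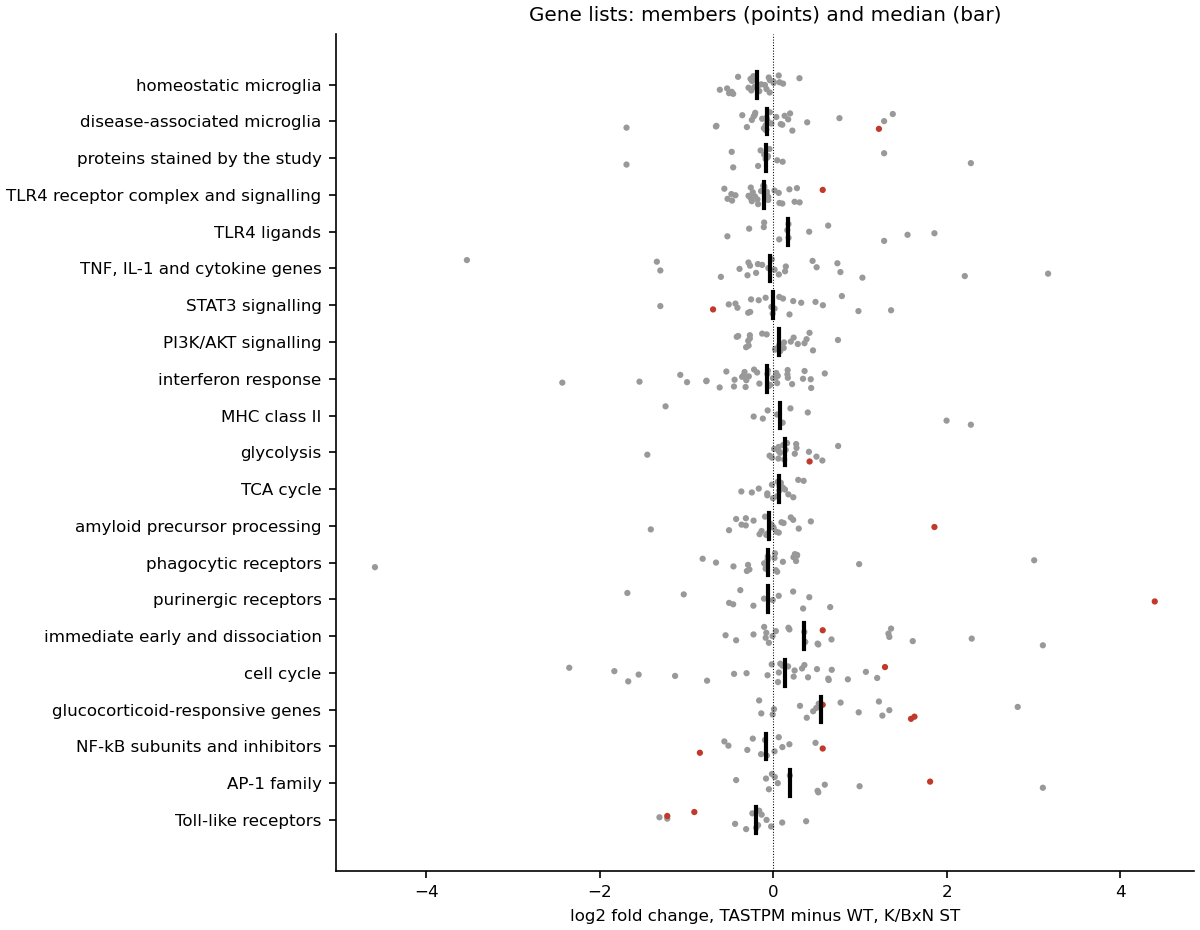
Log2 fold change of TASTPM minus WT K/BxN ST for the tested members of 21 gene lists (1 row each, 1 point per gene, red where the unadjusted limma p is below 0.05), with the median as a black bar. Medians lie between -0.20 and 0.55, the highest being that of the glucocorticoid-responsive genes.

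Transcripts of neurons, oligodendrocytes and red cells were present in traces. Snap25, a synaptic vesicle fusion protein, had 86, 141, 291 and 263 normalised counts in TASTPM and 27, 33, 146 and 94 in WT, with overlap. Stmn3, a neuronal stathmin, had 19, 46, 69 and 65 against 6, 13, 0 and 0 without overlap. Over a wider list of neuronal transcripts, written after values were seen, 5 of 8 tested genes were higher with a median of 1.15, and Nefl (-0.39 ± 1.65), Gap43 (-0.52 ± 1.48) and Uchl1 (-0.42 ± 1.28) lay on the lower side. Neuronal markers together took 0.00173% to 0.00731% of the reads in TASTPM and 5.02e-04% to 0.00146% in WT. Thy1, whose promoter drives the transgenes, gave 90.2% of these reads in TASTPM library 1, and without Thy1 the shares overlapped, at 7.14e-04% to 0.00214% in TASTPM and 4.86e-04% to 0.00146% in WT. The part of neuronal RNA in the Kif5a values was not tested.

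Mobp, a myelin protein gene, had 36, 104, 387 and 202 against 1, 28, 57 and 16, with 1 TASTPM value inside the WT range. Cnp, also expressed in oligodendrocytes, lay the other way, with 1599, 1656, 1659 and 1896 against 2236, 1746, 2628 and 2363. Oligodendrocyte markers as a whole took 0.0179% to 0.0279% of the reads in TASTPM and 0.0232% to 0.0293% in WT, so that the Mobp values did not go with the list.

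The globin genes Hbb-bs and Hba-a1, of red cells, had 405 to 1557 and 911 to 2576 normalised counts in TASTPM and 258 to 557 and 310 to 1468 in WT. Their differences were 1.41 ± 0.44 and 1.51 ± 0.50 under K/BxN ST and -3.72 ± 0.93 and -2.84 ± 0.89 under Control ST. The Control ST values rested in part on WT Control library 3, without which they were -2.30 and -1.55. Red cell markers took 0.0101% to 0.0276% of the reads in TASTPM and 0.004% to 0.0155% in WT under K/BxN ST, with overlap. Reads of Hba-a1 may be shared with its near-identical copy. Ighm, the immunoglobulin M heavy chain, had 6112, 6334, 5510 and 4720 against 8193, 8380, 6553 and 5997.

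Between genotypes under Control ST, with 12645 genes tested in 1 fit to all 14 libraries, limma again called 0 genes and 704 had a p below 0.05 without adjustment. edgeR called 0 and DESeq2 43. Leaving out 1 Control library at a time, limma called 0 to 11 genes, with 11 without WT Control library 3, 9 without WT library 2, 2 each without WT library 1 or TASTPM library 2 and 1 without TASTPM library 3. The Control ST difference then ranged from 1.04 to 2.08 for Jdp2, from 2.26 to 2.84 for Fkbp5, from -1.26 to -0.33 for Orai2, from 0.36 to 0.91 for Nfkbia and from -1.08 to -0.51 for Cst7, and it changed sign for Rel, Harbi1 and Bace1. The interaction of genotype and serum also had 0 genes called by limma (385 before adjustment at the same p threshold), 0 by edgeR and 13 by DESeq2. The genotype differences under the 2 sera are therefore given side by side for the genes above, and an effect seen in one and not in the other was not shown to differ by limma after adjustment.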

How the data were processed

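The authors sorted microglia, amplified cDNA with SMART-Seq v4 and, per the labels and methods, aligned reads with HISAT2 2.1 to GRCm39 and counted them with featureCounts 1.5.2. The deposited values are a normalised signal, the reads of a gene divided by 1 factor per library. Multiplying by that factor returned whole reads in 100% of cases (within 0.1 of a read). Of 14336 entries, 7 were duplicates and were dropped. Columns were joined to groups by their headers. Only TASTPM K/BxN ST numbers match the sample labels, and WT libraries are numbered in table order.

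Genes were tested with limma 3.58.1 (trend, R 4.3.3) on log2(value + 1) over the 8 K/BxN ST libraries, and over all 14 for Control ST and the interaction. Adjusted p values are Benjamini-Hochberg over all genes tested. edgeR 4.0.16 and DESeq2 1.42.0 on recovered reads, other scalings, filters, pseudocounts, covariates and the omission of each library were alternatives. The scripts were tested on simulated data. Gene lists, members and tests were chosen with earlier results of these data known. Genes were named by rule (91 in all, not all printed): the transgene check, proteins of the study, the 10 smallest p in each direction, and up to 2 of the smallest p per list; Fkbp5, the other glucocorticoid-responsive genes, Cd180, Stmn3, Gap43 and Uchl1 were chosen after their values were seen. The study's methods give the libraries of a group as separate mice. The authors counted reads on an Ensembl annotation, and positions here are from GENCODE vM39. The results of some genes are not reported here.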

Additional observations from a re-analysis of the deposited data

Results flagged for a closer look

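Among the genes named above, 10 group values lay far from the other 3 libraries of their group, in that the gap to the nearest exceeded Dixon's critical share of the range on the log2 scale. Chance flags about 1 in 20 groups. In TASTPM K/BxN ST these were Itgax in library 3 (4 normalised counts), Kif5a in library 3 (45), Slc4a3 in library 2 (4), Uchl1 in library 3 (0) and Cd180 in library 2 (816). In WT K/BxN ST they were Kif5a (1), Gm12708 (25), Cerox1 (27) and P2ry14 (105), all in library 1, and Fcgr2b in library 4 (8806). For Kif5a, Gm12708, P2ry14 and Slc4a3 the other 3 libraries of the group were at 0.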

How the results depend on the processing

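No paired analysis was possible because the groups share no replicate numbers. There were 4 libraries per group, with monocyte RNA in 4 of the 8 and neutrophil RNA in 3 of them. The sexes were unequally split, and every library with monocyte RNA was male. The part of each in the precision was not tested. Genes called stayed at 0 in 30 of 32 settings and were 1 with the monocyte score alone and 10 with DESeq2 and the monocyte and neutrophil score, both added after seeing the data. DESeq2 called 43 genes in Control ST and 13 for the interaction, and limma called 0 to 11 in Control ST when each Control library was left out, an alternative added after seeing the data. The cause of these differences between settings was not tested.

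Genes at an unadjusted p below 0.05 (286) numbered 1172 with array weights, 690 with the monocyte and neutrophil score, 656 with the monocyte score, 608 with the monocyte and neutrophil score and the sex-linked score together, 612 and 900 with edgeR and DESeq2 and the monocyte and neutrophil score, 682 without the 4 libraries with monocyte RNA and 537 in those alone. The 164 higher and 122 lower among the 286 became 106 to 208 and 73 to 186 when each library was left out, 319 and 363 without the 4 libraries with monocyte RNA, and 270 and 342 with edgeR and 350 and 550 with DESeq2 and the score. Genes without overlap (232) numbered 423 to 558 when each library was left out, 4402 without the 4 libraries with monocyte RNA and 4316 in those alone, where fewer libraries per group make separation easier.

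Direction was followed for 68 of the genes named above, not for Ly6c2, Tmem119 and Ddx3y, given only to describe the libraries. Of the 68, 57 kept their direction in every setting and 11 did not, none of which had an unadjusted p below 0.05. With array weights the log2 differences became 0.00 for App, 0.17 for Cd68, -0.01 for Mertk, 0.08 for Trem2, 0.40 for Nefl, 0.15 for Gap43 and 0.30 for Uchl1. Uchl1 was 0.02 with edgeR and 0.03 with DESeq2 with or without a filter. H2-Aa was -0.48 with edgeR and -0.46 with DESeq2 with or without a filter, and -0.36 and -0.30 when these had the monocyte and neutrophil score. Lgals3 was -0.09 with edgeR and -0.08 with DESeq2 with or without a filter, and -0.95 and -0.88 with the score. With the score in limma Hmgb1 was -0.02 and Trem2 0.01, in edgeR -0.04 and 0.04, and in DESeq2 -0.03 and 0.04. With the sex-linked score Tlr4 was 0.06, Trem2 0.10, Lgals3 -0.63 and Hmgb1 -0.07, and with the sex-linked and the monocyte and neutrophil score together Trem2 was 0.03, Lgals3 -0.02 and Uchl1 0.04. In the 4 libraries with monocyte RNA alone Cd68 was 0.08, H2-Aa -0.84, Mertk -0.10, Lgals3 -0.13 and Uchl1 1.04, and in the other 4 Hmgb1 was -0.24. Leaving out each library gave -0.22 to 0.10 for App, -0.19 to 0.02 for Cd68, -0.21 to 0.30 for Hmgb1, -1.28 to 2.95 for Lgals3, -0.27 to 0.43 for Mertk, -0.41 to 0.02 for Tlr4, -0.30 to 0.22 for Trem2, -1.73 to 0.82 for Nefl, -1.68 to 0.46 for Gap43 and -0.90 to 0.74 for Uchl1.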
